A study of Mus musculus with 9 samples.

Results

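The genes described here encode 36 proteins of mitochondrial fuel oxidation, and they were followed in mouse lung through allergic sensitisation with and without airborne particles. They were picked by symbol from a list covering glucose entry and the pyruvate dehydrogenase complex (7 genes), the citrate cycle (11), fatty acid activation and the carnitine shuttle (5), mitochondrial beta oxidation (10) and electron transfer from beta oxidation (3). All 36 were found among the 21884 genes of the deposited table, 20 by the symbol given there and 16 through their Ensembl identifier.

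Whole-lung mRNA was measured in 9 male BALB/c mice, a common inbred strain, which entered the study at 6 weeks of age, with 3 mice in each of 3 groups. Naive mice received saline by both routes used in the other groups. OVA mice received 50 µg ovalbumin (OVA, an egg-white protein used as an allergen) with 1 mg of the adjuvant aluminium hydroxide in 200 µL into the peritoneum on days 0, 7 and 14, and then 400 µg ovalbumin in 40 µL into the nose daily from day 21 to day 27. OVA+PM2.5 mice received the same ovalbumin course, and nasal drops of a suspension of fine particulate matter (PM2.5) once daily from 7 days before the start until the day before the end. Lungs were collected on day 28. The particle dose is not given in the labels, and particles without ovalbumin are not among the groups, so the particle comparison is one between mice that all carried ovalbumin. Mice are numbered within their group by the labels. In the fit over all 9 libraries, the p-values below test a difference between group means against 1 spread shared by the groups.

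As background, cells that use much energy take up glucose through transporters and import its product pyruvate into mitochondria, where the pyruvate dehydrogenase complex turns it into acetyl-CoA. Fatty acids reach the same product by another road: they are coupled to CoA, passed over the mitochondrial membranes as carnitine esters and shortened stepwise by beta oxidation. The citrate cycle burns the acetyl-CoA, and heart, red skeletal muscle and brown fat are the tissues best known for high levels of these enzymes. In lung, surfactant-producing epithelial cells and macrophages also use the pathway.

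Promoter sequences of 5 of the genes are printed here to show the letters from which their transcription starts, with counts of simple motifs over the whole group. RefSeq windows on GRCm38.p6, from 250 bases before to 50 bases after the start of the gene, were matched by symbol to 32 of the 36 genes, in 39 windows, with none for Cpt1b, Idh3a, Acaa2 and Slc2a4. Acadm (chr3:153944594-153944893, minus strand) and Ogdh (chr11:6291920-6292219, plus strand) are shown because theirs held AAGGTCA, the half-site read by several nuclear receptors including the estrogen-related receptors, on either strand. Capitals mark the match, which began 249 bases before the start of Acadm and 5 bases before that of Ogdh.
Acadm: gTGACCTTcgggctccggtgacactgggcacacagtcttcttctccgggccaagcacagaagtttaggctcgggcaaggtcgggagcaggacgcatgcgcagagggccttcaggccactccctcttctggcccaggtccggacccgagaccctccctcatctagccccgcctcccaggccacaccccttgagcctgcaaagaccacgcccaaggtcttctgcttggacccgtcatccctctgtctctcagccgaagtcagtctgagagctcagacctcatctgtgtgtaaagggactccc
Ogdh: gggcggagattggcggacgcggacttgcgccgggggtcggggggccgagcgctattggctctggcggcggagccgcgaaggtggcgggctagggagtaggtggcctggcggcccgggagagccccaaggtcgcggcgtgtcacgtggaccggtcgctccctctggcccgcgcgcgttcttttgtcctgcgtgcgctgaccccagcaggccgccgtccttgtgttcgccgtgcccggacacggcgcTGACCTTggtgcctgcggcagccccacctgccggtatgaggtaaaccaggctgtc
That half-site was in 2 of 39 windows (5.13%) and in 4.72% of all 32851 mouse windows, and the longer TNAAGGTCA was in 0 of 39 against 1.28% of all windows. Both strands were searched, and the longer motif contains the shorter. The TATA box TATAAA was in 0 of 39 windows against 13.6% of all. CCAAT was in 20 windows (51.3%), of 15 genes, against 37.4% of all windows, and the median GC content was 60.3% against 52.7%.

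Hadhb (chr5:30155003-30155302, plus strand) is shown because it lies head to head with Hadha, the gene of its partner subunit, with 273 bases between their starts. Capitals mark the 228 bases that are also in the Hadha window, read there on the other strand. Pdk4 (chr6:5496229-5496528, minus strand) and Cpt1a (chr19:3323051-3323350, plus strand) are shown as the genes with the largest positive and the one negative difference described below, and their capitals mark CCAAT on either strand.
Hadhb: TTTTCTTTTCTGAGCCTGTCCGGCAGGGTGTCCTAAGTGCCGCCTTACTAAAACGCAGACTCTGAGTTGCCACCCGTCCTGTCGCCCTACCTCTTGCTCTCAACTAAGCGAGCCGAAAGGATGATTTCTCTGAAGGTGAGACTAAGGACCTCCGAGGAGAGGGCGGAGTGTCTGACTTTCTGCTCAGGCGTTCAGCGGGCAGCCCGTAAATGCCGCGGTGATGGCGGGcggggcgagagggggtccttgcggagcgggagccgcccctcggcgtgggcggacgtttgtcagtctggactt
Pdk4: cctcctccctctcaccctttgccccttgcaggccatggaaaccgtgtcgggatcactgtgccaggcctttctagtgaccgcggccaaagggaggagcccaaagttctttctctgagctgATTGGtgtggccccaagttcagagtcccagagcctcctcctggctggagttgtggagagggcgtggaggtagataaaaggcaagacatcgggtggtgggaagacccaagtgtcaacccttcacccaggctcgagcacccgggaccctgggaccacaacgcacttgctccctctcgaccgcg
Cpt1a: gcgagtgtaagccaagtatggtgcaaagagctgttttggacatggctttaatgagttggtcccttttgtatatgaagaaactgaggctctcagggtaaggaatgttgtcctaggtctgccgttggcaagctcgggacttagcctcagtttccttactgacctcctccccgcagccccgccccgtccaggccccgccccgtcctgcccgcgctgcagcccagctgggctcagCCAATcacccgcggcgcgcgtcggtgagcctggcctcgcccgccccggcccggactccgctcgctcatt
The match began 131 bases before the start of Pdk4 and 19 bases before that of Cpt1a. A match is a description of the letters and not a bound site.

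Before the results, the libraries have to be described, since some hold muscle, heart or fat marker transcripts far above the levels of the others. The FPKM steps gave 12142843 to 15748097 fragments per library. OVA+PM2.5 replicate 1 had a summed level of 12 skeletal muscle markers of 16500 FPKM (fragments scaled to transcript length and library size, a level per length), where the 6 Naive and OVA libraries had 1.12 to 6.40, and 11 of the 12 markers stood at more than 10 times the highest Naive or OVA library and at 5 FPKM or more. The same library had 703 FPKM of 10 fat markers, above the 1.09 to 166 of the Naive and OVA libraries, with 1 of the 10 past that limit. Of these 703 FPKM, 570 were of the single marker Car3, which was at 73.6 FPKM in Naive replicate 3. OVA+PM2.5 replicate 2 had 5607 FPKM of 12 cardiac markers against 40.1 to 325, with 10 of 12 past that limit. OVA+PM2.5 replicate 3 had 3825 FPKM of the fat markers, with 7 of 10 past it, among them the brown-fat uncoupling protein Ucp1 at 1308 FPKM, and it also had 5 of 12 skeletal muscle markers past it with a sum of 293 FPKM. Cardiac Myl7, Nppa and Tnni3 were at 0 in replicate 1, and skeletal Myh1, Myh2 and Myh4 and fat Elovl3, Retn and Lep were at 0 in replicate 2, while Tnnc2 was listed at 0 in all 9 libraries.

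Lung epithelium, the defining tissue of the label, was thin in 2 of these libraries. The sum of its 10 markers was 55940 to 199000 FPKM in the Naive and OVA libraries, 158 in OVA+PM2.5 replicate 1, 91680 in replicate 2 and 6827 in replicate 3. In replicates 1 and 3 all 10 markers were below the 6 Naive and OVA libraries, and in replicate 2 this held for 1 of 10. OVA+PM2.5 replicate 2 was thus within the Naive and OVA range for the lung epithelium sum, and replicates 1 and 3 were far under it. Results are therefore also given without replicates 1 and 3. In whole tissue, a higher level through more cells of a type cannot be told apart from a higher level per cell.

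**Figure D1:**
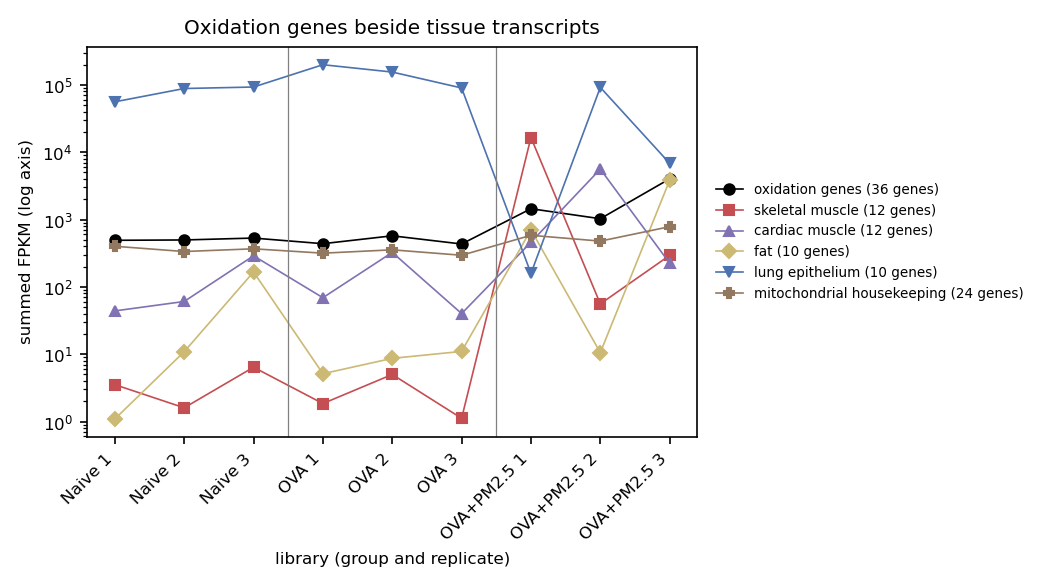
Summed FPKM (log axis) of the 36 oxidation genes and of 5 other gene lists in each of the 9 libraries, with lines joining the points of a list for the eye only. The oxidation genes are above their Naive and OVA range (433 to 573 FPKM) in all 3 OVA+PM2.5 libraries. Each of these 3 also has 1 marker list at its peak: skeletal muscle in replicate 1, cardiac muscle in replicate 2 and fat in replicate 3.

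The 36 genes together were higher in each OVA+PM2.5 library than in any other. Their summed level was 491, 497 and 530 FPKM in the Naive libraries, 437, 573 and 433 FPKM in the OVA libraries, and 1446, 1027 and 4019 FPKM in OVA+PM2.5 replicates 1, 2 and 3. As a share of recovered fragments this was 0.290 to 0.354% in the first 6 libraries and 0.952%, 0.673% and 2.53% in the last 3. Gene by gene, 32 of the 36 had all 3 OVA+PM2.5 libraries above all 6 others, Cpt1a had all 3 below, and Slc25a20, Echs1 and Etfb had neither. Among the 34 genes that passed the filter for testing (at least 0.5 FPKM in at least 3 of 9 libraries, which each of the 34 also met on the Naive and OVA libraries alone) the count was 31, and of all 12982 genes tested 4.01% were above in this way and 12.0% below.

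The 3 OVA+PM2.5 libraries differed widely among themselves. Replicate 3 was the highest of all 9 libraries for 32 of the 36 genes, replicate 1 for Slc2a4 and Pdk2, and replicate 2 for Mdh1, while Cpt1a was highest in OVA replicate 2. The median gene stood 1.40, 1.09 and 3.12 log2 units above the OVA mean in replicates 1, 2 and 3, and the median of all genes tested stood at −0.32, −0.09 and −0.32. Mitochondrial housekeeping genes (24 genes of protein import, chaperones, mitochondrial DNA upkeep and membrane dynamics) had medians of 0.39, 0.45 and 1.30.

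**Figure D2:**
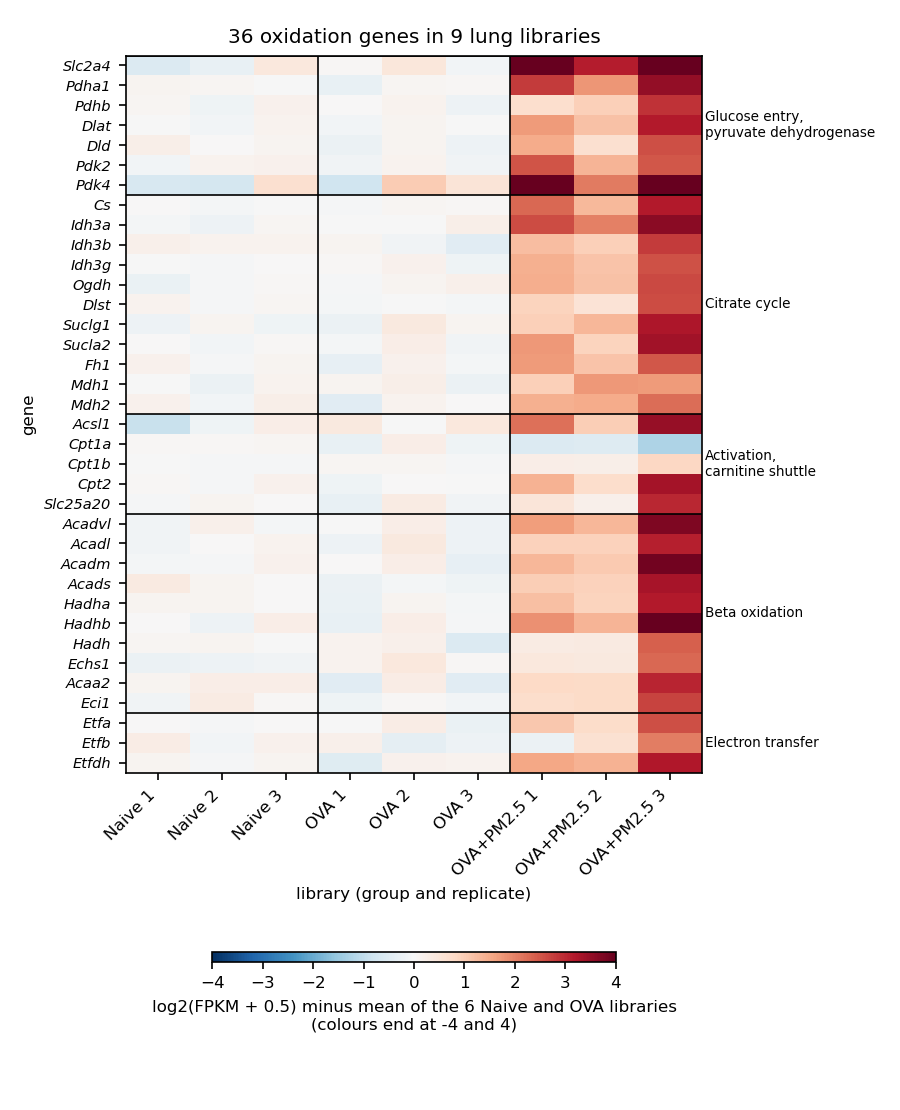
Level of each of the 36 genes in each library, as log2(FPKM + 0.5) minus the mean of the 6 Naive and OVA libraries (red higher, blue lower), grouped by role. The OVA+PM2.5 columns are red in nearly every row and strongest in replicate 3, Cpt1a is the row that turns blue in all 3, and the Naive and OVA columns stay pale.

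Allergic sensitisation and challenge on its own was addressed by comparing OVA with Naive lungs. No change was called among the 34 genes tested: 0 had an adjusted p under 0.05 in limma (a linear model on log2(FPKM + 0.5), fitted over all genes and libraries with Benjamini-Hochberg adjustment), and 0 had an unadjusted p under 0.05. A voom fit on the recovered fragments also called 0. Of all genes tested 2 were called, both lower, which is 0.0154%, and 11.4% had an unadjusted p under 0.05. The 34 log2 differences ran from −0.42 for Acaa2, the thiolase of the last beta oxidation step, to 0.52 for Acsl1, which couples long-chain fatty acids to CoA, with a median of −0.05 beside −0.11 for all genes. The smallest adjusted p, that of Acsl1, was 0.759. In a limma fit of the Naive and OVA libraries alone, 0 of the 34 were called and 1 had an unadjusted p under 0.05. Of all 12982 genes, 895 were called in that fit and 3377 had an unadjusted p under 0.05.

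A few genes had Naive and OVA groups that did not overlap. Echs1, the short-chain enoyl-CoA hydratase, was at 5.56, 5.68 and 6.01 FPKM in Naive and 7.41, 9.12 and 6.88 FPKM in OVA libraries, and 11.2% of all genes were higher in OVA without overlap. Idh3b, a subunit of NAD-dependent isocitrate dehydrogenase, and Acads, the short-chain acyl-CoA dehydrogenase, were lower in OVA without overlap, as were 22.4% of all genes. Idh3b was at 13.5, 13.0 and 13.1 against 12.9, 10.7 and 8.41 FPKM, and Acads at 7.47, 6.25 and 5.78 against 4.81, 5.41 and 4.96 FPKM. The log2 differences were 0.40 for Echs1, −0.32 for Idh3b and −0.33 for Acads. In the fit over all libraries, which includes the OVA+PM2.5 libraries, each was smaller than its SE (0.46, 0.44 and 0.55). In the fit of the Naive and OVA libraries alone, each was larger than its SE (0.15, 0.18 and 0.15). None of these 3 genes was called in either fit.

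Within the control groups the genes followed individual libraries. Of the 34 tested genes, 19 were highest in Naive replicate 3 among the Naive libraries, where 27.0% of all genes were, and 30 were highest in OVA replicate 2 among the OVA libraries, where 25.9% of all genes were. These 2 libraries also held the most atrial transcript of their groups: Myl7, the atrial myosin light chain, was at 130 and 154 FPKM there and at 0.24 to 6.58 FPKM in the other 4. Naive replicate 3 also held the most fat transcript of its group, with a marker sum of 166 FPKM against 1.09 and 10.9 FPKM. The part of these transcripts in the ordering was not tested.

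Particle exposure on top of ovalbumin was addressed by comparing OVA+PM2.5 with OVA lungs. The glucose transporter Slc2a4, the citrate cycle subunit Idh3a, and the pyruvate dehydrogenase subunit Pdha1 with its kinase Pdk2 rose, and no tested gene of the 36 was called lower. These 4 of the 34 tested genes had an adjusted p under 0.05 in limma, while 0.193% of all genes were called higher, 0.0231% lower and 0.216% in either direction. The median log2 difference of the 34 genes was 1.83, beside −0.23 for all genes tested and 0.66 for the 24 mitochondrial housekeeping genes, of which 1 was called (Mfn2, a mitochondrial fusion protein, at 2.35 ± 0.22 SE with an adjusted p of 0.0182). Of the 34 genes, 31 had an unadjusted p under 0.05, as had 27.0% of all genes, and 31 had OVA+PM2.5 libraries above all OVA libraries, as had 6.86% of all genes, while Cpt1a had them below, as had 20.1% of all genes.

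How many genes pass depended on the libraries. With any 1 of Naive replicates 1, 2 and 3, or OVA replicates 2 and 3, left out, the count fell from 4 to 0, and without OVA replicate 1 it was 1. In the fits with a count of 0, 0 of all 12982 genes were called. Without OVA+PM2.5 replicate 1, 2 or 3 the count among the 34 was 4, 30 or 16. Of all 12982 genes, 63, 634 and 194 were called higher in these fits, and 4, 2661 and 7 lower. An alternative without both OVA+PM2.5 replicates 1 and 3 was added after the data had been seen. The median log2 difference of the 34 genes was there 1.09, beside −0.09 for all genes tested. Slc2a4, Idh3a, Pdha1 and Pdk2 were at 3.01, 1.93, 1.83 and 1.42. The lone replicate 2 is in that fit assumed to vary as the other groups do. That replicate had 10 of 12 cardiac markers raised, with a median log2 difference from OVA of 5.36 over the cardiac list. The part of these transcripts in the differences of the 34 genes was not tested.

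**Figure D3:**
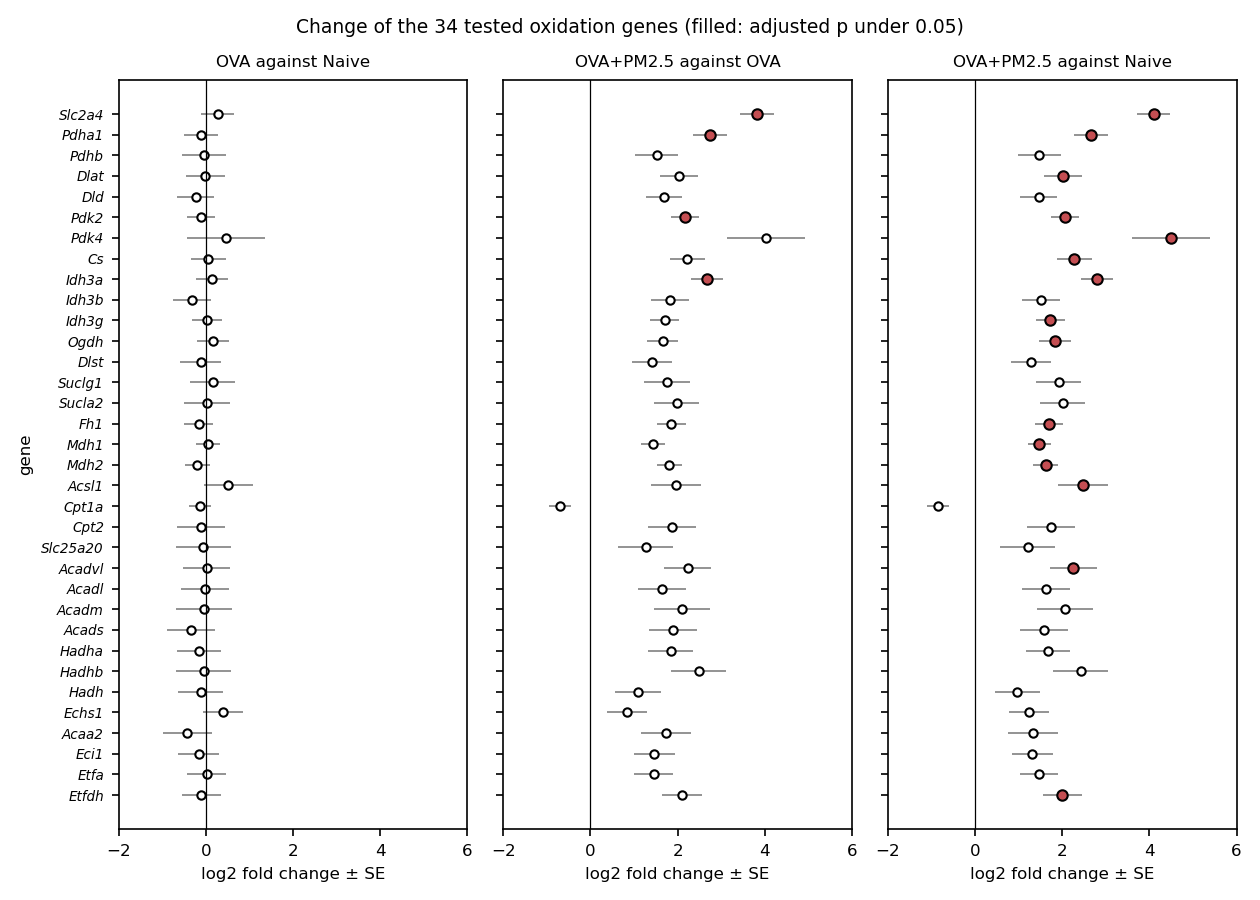
Log2 fold change on the log2(FPKM + 0.5) scale with its standard error for the 34 tested genes in the 3 comparisons (n = 3 libraries a group); filled points have an adjusted p under 0.05 in limma. OVA against Naive centres on 0, both OVA+PM2.5 comparisons lie to the right for every gene except Cpt1a, and 4 and 15 points are filled.

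Against Naive lungs, which differ from OVA+PM2.5 lungs in both ovalbumin and particles, 15 of the 34 genes were called higher and 0 lower, beside 1.53% of all genes called higher, 5.59% lower and 7.12% in either direction. These were Slc2a4, Pdha1, Pdk2, Pdk4 and Dlat of glucose entry, Cs, Idh3a, Idh3g, Ogdh, Fh1, Mdh1 and Mdh2 of the citrate cycle, Acsl1, Acadvl and Etfdh. The median log2 difference was 1.72, beside −0.33 for all genes. An unadjusted p under 0.05 was found for 32 of the 34, as for 34.6% of all genes. OVA+PM2.5 libraries were above all Naive libraries for 33, as for 6.83% of all genes, and below them for Cpt1a, as for 33.2%. Both OVA+PM2.5 comparisons use the same 3 OVA+PM2.5 libraries. The count was 0 without any 1 of the Naive replicates 1, 2 and 3, where 0 of all genes were called. It was 2 without any 1 of the OVA replicates 1, 2 and 3, where 20, 15 and 18 of all genes were called higher. Without OVA+PM2.5 replicate 1, 2 or 3 it was 6, 30 or 17. Of all 12982 genes, 77, 695 and 240 were called higher in these fits, and 66, 3553 and 178 lower. Without OVA+PM2.5 replicate 2, Cpt1a also passed as lower. Without both OVA+PM2.5 replicates 1 and 3 the median log2 difference of the 34 genes was 1.05, beside −0.17 for all genes.

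Glucose entry held the genes with the largest log2 differences, Pdk4 and Slc2a4. Slc2a4 encodes GLUT4, the insulin-regulated glucose transporter of muscle and fat. It was at 0.40, 0.57 and 1.27 FPKM in Naive, 0.86, 1.30 and 0.73 FPKM in OVA, and 26.6, 11.2 and 26.6 FPKM in OVA+PM2.5 libraries. Each OVA+PM2.5 library was far above all others, at 27.6, 11.6 and 27.6 times the OVA mean, and the log2 fold change against OVA was 3.82 ± 0.38 (SE, limma adjusted p = 0.0182). Against Naive it was 4.10 ± 0.38 with an adjusted p of 0.0156. Without OVA+PM2.5 replicates 1 and 3 it was 3.01 ± 0.39 against OVA, with a limma adjusted p of 0.0114.

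The widely expressed glucose transporter Slc2a1 gave another picture. Its level was 3.56, 3.25 and 2.93 FPKM in Naive, 6.84, 5.69 and 6.05 FPKM in OVA, and 5.28, 5.84 and 3.40 FPKM in OVA+PM2.5 libraries, so that OVA and OVA+PM2.5 overlapped. The ratio of Slc2a4 to Slc2a1, which are compared per length, was 0.113 to 0.433 in Naive and OVA libraries and 5.04 in OVA+PM2.5 replicate 1, 1.91 in replicate 2 and 7.83 in replicate 3. The order of the 2 transporters was thus turned in all 3 OVA+PM2.5 libraries. Set against citrate synthase, Slc2a4 over Cs was 0.0161 to 0.0518 in Naive and OVA libraries and 0.216, 0.179 and 0.118 in OVA+PM2.5 libraries, so the transporter was raised by more than that enzyme.

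Pdha1 encodes the catalytic alpha subunit of pyruvate dehydrogenase. It was at 13.4, 13.1 and 12.4 FPKM in Naive, 10.1, 13.3 and 12.8 FPKM in OVA, and 89.3, 43.9 and 150 FPKM in OVA+PM2.5 libraries, with no overlap between OVA+PM2.5 and the others. Against OVA the log2 fold change was 2.75 ± 0.39 with a limma adjusted p of 0.0407, and 1.83 without OVA+PM2.5 replicates 1 and 3. In the GENCODE M21 annotation of GRCm38, 16.1% of its exon bases are shared with Map3k15 on the opposite strand. The other subunits, Pdhb (beta subunit), Dlat (acetyltransferase) and Dld (the dehydrogenase shared with other complexes), had log2 differences of 1.52, 2.03 and 1.69 against OVA and did not pass, with adjusted p-values of 0.113, 0.0768 and 0.0849; Dlat passed against Naive at 2.02 with an adjusted p of 0.0398. Their OVA+PM2.5 levels were also above all others, for Pdhb at 18.3, 22.5 and 86.6 FPKM against 9.75 to 12.8 FPKM. For Pdhb, 71.2% of the transcript lies in near-identical copies elsewhere in the genome, so its level is uncertain.

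The kinases that switch this complex off by phosphorylation were higher too. Pdk2 was at 11.4, 13.6 and 13.9 FPKM in Naive, 11.2, 13.6 and 11.1 FPKM in OVA, and 73.7, 32.6 and 71.8 FPKM in OVA+PM2.5 libraries, and rose by a log2 fold change of 2.18 ± 0.32 against OVA (limma adjusted p = 0.0425), and by 1.42 without OVA+PM2.5 replicates 1 and 3. Pdk4, the kinase induced by fasting and fatty acids, was at 2.33, 2.19 and 6.32 FPKM in Naive, 2.01, 8.34 and 5.74 FPKM in OVA, and 160, 18.1 and 201 FPKM in OVA+PM2.5 libraries. Replicates 1 and 3 were at 29.9 and 37.5 times the OVA mean and replicate 2 at 3.38 times. Its log2 difference against OVA was the largest of the 34, at 4.03 ± 0.89, and did not pass (limma adjusted p = 0.079), while against Naive it was 4.50 with an adjusted p of 0.0348.

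The ratio of Pdk4 to Pdk1, a kinase outside the 36, was 0.907 to 3.95 in Naive and OVA libraries. It was 19.4 and 32.2 in OVA+PM2.5 replicates 1 and 3 and 3.52, inside the Naive and OVA range, in replicate 2. The top of that range, 3.95, was Naive replicate 3 alone. The other Naive and OVA libraries were at 2.90 or less, under OVA+PM2.5 replicate 2. The part of muscle, heart or fat transcripts in this ratio was not tested.

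**Figure D4:**
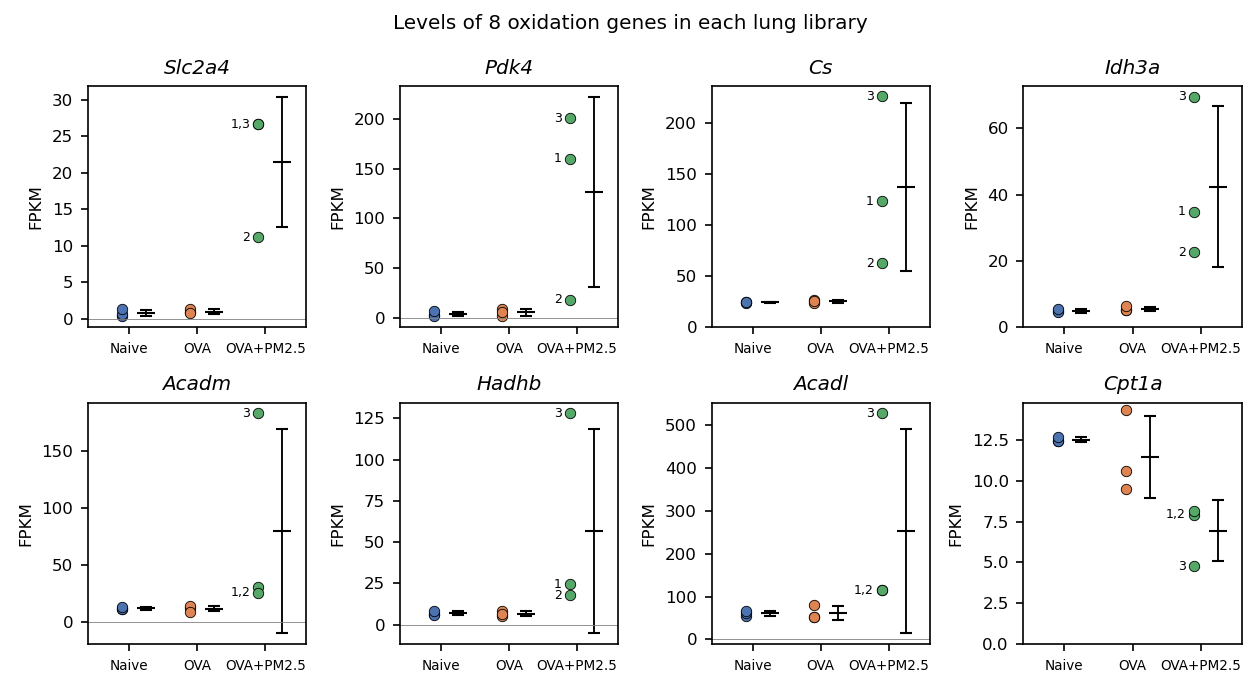
FPKM (linear axes that include 0 and extend below it where an SD bar does) of 8 genes in each library. Points are libraries, with OVA+PM2.5 replicate numbers beside them, and the bar is the mean with its SD (n = 3). Slc2a4, Pdk4, Cs, Idh3a, Acadm, Hadhb and Acadl lie above all Naive and OVA points in the 3 OVA+PM2.5 libraries and Cpt1a lies below them, with the Acadm, Hadhb and Acadl means set largely by replicate 3.

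In the citrate cycle all 11 genes were above the Naive and OVA libraries in each OVA+PM2.5 library, with medians of 1.42, 1.23 and 2.66 log2 units over OVA in replicates 1, 2 and 3. Citrate synthase (Cs), which opens the cycle, was at 25.1, 23.4 and 24.6 FPKM in Naive, 24.0, 26.4 and 26.0 FPKM in OVA, and 123, 62.6 and 226 FPKM in OVA+PM2.5 libraries. Its Naive and OVA levels were close to each other (24.4 ± 0.85 and 25.5 ± 1.26 FPKM, mean ± SD, n = 3) and its OVA+PM2.5 levels were all at more than 2 times theirs. The log2 difference against OVA was 2.22 ± 0.40 with a limma adjusted p of 0.0609, and against Naive 2.28 with 0.0298.

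Idh3a, the catalytic subunit of NAD-dependent isocitrate dehydrogenase, was at 4.98, 4.49 and 5.64 FPKM in Naive, 5.27, 5.18 and 6.31 FPKM in OVA, and 34.8, 22.7 and 69.4 FPKM in OVA+PM2.5 libraries. It was the one citrate cycle gene of the 11 that passed against OVA, with a log2 fold change of 2.67 ± 0.36 and a limma adjusted p of 0.0329, and 1.93 without OVA+PM2.5 replicates 1 and 3. Its partner subunits Idh3b and Idh3g had log2 differences of 1.82 and 1.70 with adjusted p-values of 0.0839 and 0.0689. The levels of Idh3b, 28.1, 23.5 and 85.4 FPKM, and Idh3g, 25.5, 20.8 and 56.1 FPKM, were in OVA+PM2.5 libraries all above the Naive and OVA ranges of 8.41 to 13.5 and 7.96 to 10.4 FPKM.

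The next steps of the cycle had log2 differences against OVA of 1.66 for Ogdh and 1.41 for Dlst, both subunits of the oxoglutarate dehydrogenase complex, 1.76 for Suclg1 and 1.98 for Sucla2, both of succinyl-CoA synthetase, and 1.86 for the fumarase Fh1. None of these 5 passed against OVA (limma adjusted p of 0.0608 for Fh1 to 0.11 for Dlst), and Ogdh and Fh1 passed against Naive, both with an adjusted p of 0.034. Dlst had the lowest OVA+PM2.5 library of the 5 relative to OVA, at 13.4 FPKM in replicate 2, or 1.55 times the OVA mean.

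The malate dehydrogenases had a flatter pattern. Mdh1, the cytosolic enzyme of the malate-aspartate shuttle, was at 24.6, 21.1 and 27.3 FPKM in Naive, 26.3, 29.1 and 20.7 FPKM in OVA, and 48.3, 82.7 and 80.7 FPKM in OVA+PM2.5 libraries, so that it was lowest of these 3 in the library with the skeletal muscle markers. The mitochondrial Mdh2 was at 46.4, 49.2 and 82.9 FPKM there, above a Naive and OVA range of 12.5 to 20.2 FPKM. Their log2 differences against OVA were 1.43 ± 0.27 and 1.81 ± 0.28, with limma adjusted p-values of 0.0621 and 0.0518, and against Naive both passed, at 1.48 (0.0318) and 1.62 (0.0293). The ratio of Mdh1 to Cs was 0.795 to 1.11 in Naive and OVA libraries, 0.392 and 0.357 in OVA+PM2.5 replicates 1 and 3, and 1.32 in replicate 2.

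Fatty acid activation and the carnitine shuttle held the one gene that was lower. Cpt1a, the liver-type carnitine palmitoyltransferase that controls entry of long-chain fatty acids into mitochondria, was at 12.4, 12.5 and 12.7 FPKM in Naive, 9.52, 14.3 and 10.6 FPKM in OVA, and 7.91, 8.15 and 4.77 FPKM in OVA+PM2.5 libraries. All 3 OVA+PM2.5 libraries were below the 6 others, as was so for 12.0% of all genes. The log2 differences were −0.70 ± 0.25 against OVA (limma adjusted p = 0.125) and −0.84 ± 0.25 against Naive (0.0627), and neither passed. Without OVA+PM2.5 replicates 1 and 3 the log2 difference against OVA was −0.45.

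Cpt1b, the muscle-type enzyme of the same step, was close to undetected. It had 1, 0 and 0 recovered fragments in Naive, 3, 3 and 0 in OVA libraries, and 8, 8 and 24 fragments in the OVA+PM2.5 group, or 0.12, 0.11 and 0.42 FPKM in the last group. The ratio of Cpt1b to Cpt1a was at most 0.0047 in Naive and OVA libraries and 0.0154, 0.0138 and 0.0880 in the OVA+PM2.5 libraries. Cpt1b did not pass the filter, and without the filter its log2 difference against OVA was 0.42 with a limma adjusted p of 0.166. In the GENCODE M21 annotation (GRCm38) 81.4% of its exon bases are shared on the same strand with the gene model Gm44502, which was at 0 in all libraries, and how the authors' counting treated shared reads is not given in the sources used here, so its level is uncertain.

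The other 3 genes of this step were at their highest in OVA+PM2.5 replicate 3. Acsl1 was at 3.05, 5.39 and 7.47 FPKM in Naive, 8.11, 5.98 and 8.35 FPKM in OVA, and 29.9, 12.6 and 72.8 FPKM in OVA+PM2.5 libraries, and rose against Naive by 2.48 ± 0.57 on the log2 scale (limma adjusted p = 0.0431). Cpt2, which moves the fatty acyl group from carnitine back to CoA inside the mitochondrion, was at 12.9, 7.93 and 51.4 FPKM in OVA+PM2.5 libraries against 4.03 to 5.33 FPKM elsewhere. Slc25a20, the carnitine-acylcarnitine carrier, was at 8.60, 7.07 and 52.3 FPKM, and its replicate 2 lay within the Naive and OVA range of 4.81 to 7.69 FPKM. Neither Cpt2 (1.87, adjusted p = 0.0991) nor Slc25a20 (1.27, 0.234) passed in limma against OVA.

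In beta oxidation proper, OVA+PM2.5 replicate 3 was the highest library for each gene. The 10 genes had medians of 1.07, 0.98 and 3.25 log2 units over the OVA mean in OVA+PM2.5 replicates 1, 2 and 3, and 0 of the 10 passed against OVA in limma, as in the voom fit, while 8 had an unadjusted p under 0.05, as had 27.0% of all genes. The acyl-CoA dehydrogenases catalyse the first step for chains of falling length. Acadvl, for very long chains, was at 15.7, 12.3 and 67.3 FPKM in OVA+PM2.5 libraries against 3.91 to 5.65 FPKM in Naive and OVA libraries and passed against Naive (2.25 ± 0.54, limma adjusted p = 0.0452). In the GENCODE M21 annotation 42.9% of its exon bases are shared with Dvl2 on the opposite strand.

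Acadl, for long chains, was at 55.5, 61.9 and 67.0 FPKM in Naive, 52.5, 80.8 and 52.6 FPKM in OVA, and 116, 115 and 528 FPKM in OVA+PM2.5 libraries. Acadm, for medium chains, was at 11.5, 11.7 and 13.6 FPKM in Naive, 12.2, 14.6 and 9.49 FPKM in OVA, and 31.1, 25.7 and 183 FPKM in OVA+PM2.5 libraries. For both, replicates 1 and 2 were near to each other at about the same distance over the controls, and replicate 3 was several times higher. The log2 differences against OVA were 1.65 ± 0.55 and 2.10 ± 0.64, with limma adjusted p-values of 0.113 and 0.102. Acads, for short chains, had 11.8, 11.4 and 60.7 FPKM in OVA+PM2.5 libraries.

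The trifunctional protein, which carries out the later steps for long chains, is built from Hadha and Hadhb. Hadha was at 10.8, 10.8 and 10.1 FPKM in Naive, 8.19, 10.7 and 9.50 FPKM in OVA, and 23.6, 19.0 and 94.4 FPKM in OVA+PM2.5 libraries. Hadhb was at 6.58, 5.64 and 7.98 FPKM in Naive, 5.23, 8.02 and 6.27 FPKM in OVA, and 24.4, 17.7 and 128 FPKM in OVA+PM2.5 libraries. Both were above all Naive and OVA libraries, and Hadhb by more: the ratio of Hadhb to Hadha was 0.522 to 0.793 in Naive and OVA libraries and 1.04, 0.931 and 1.35 in OVA+PM2.5 libraries. The 2 genes face each other across the shared bases shown above. For Hadhb, 69.7% of the transcript lies in near-identical copies elsewhere in the genome, so its level is uncertain.

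The remaining enzymes of the spiral were also at their highest in OVA+PM2.5 replicate 3. Hadh, the dehydrogenase for shorter chains, was at 30.6, 30.9 and 129 FPKM in OVA+PM2.5 libraries against 16.5 to 28.0 FPKM elsewhere, and Eci1, an isomerase for unsaturated fatty acids, at 8.88, 9.17 and 36.4 FPKM against 4.53 to 6.62 FPKM. Echs1 was at 9.12, 8.93 and 35.1 FPKM, and its replicate 2 lay just under the highest OVA library (9.12 FPKM). Acaa2 was at 52.9 to 90.0 FPKM in Naive and OVA libraries and at 127, 126 and 606 FPKM in OVA+PM2.5 libraries. Of these 4, Echs1 had the smallest log2 difference against OVA among the genes that were higher (0.84 ± 0.46, limma adjusted p = 0.272).

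Electron transfer from beta oxidation to the respiratory chain runs through the flavoprotein Etfa and Etfb and its dehydrogenase Etfdh. Etfdh was at 3.08, 2.72 and 3.11 FPKM in Naive, 1.90, 3.28 and 3.23 FPKM in OVA, and 9.25, 8.25 and 30.7 FPKM in OVA+PM2.5 libraries, and rose against Naive (2.00 ± 0.45, limma adjusted p = 0.042). Etfa was at 57.9, 45.0 and 165 FPKM in OVA+PM2.5 libraries against 22.5 to 33.6 FPKM, with 17.5% of its transcript in near-identical copies. Etfb was at 0.40, 0.19 and 0.33 FPKM in Naive, 0.36, 0.08 and 0.14 FPKM in OVA, and 0.13, 0.63 and 2.55 FPKM in OVA+PM2.5 libraries, far under its partner Etfa, and replicate 1 overlapped with the controls. It did not pass the filter, and 58.2% of its exon bases are shared on the same strand with the gene model Gm45233, listed at 0 in all libraries, so its level is uncertain.

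**Figure D5:**
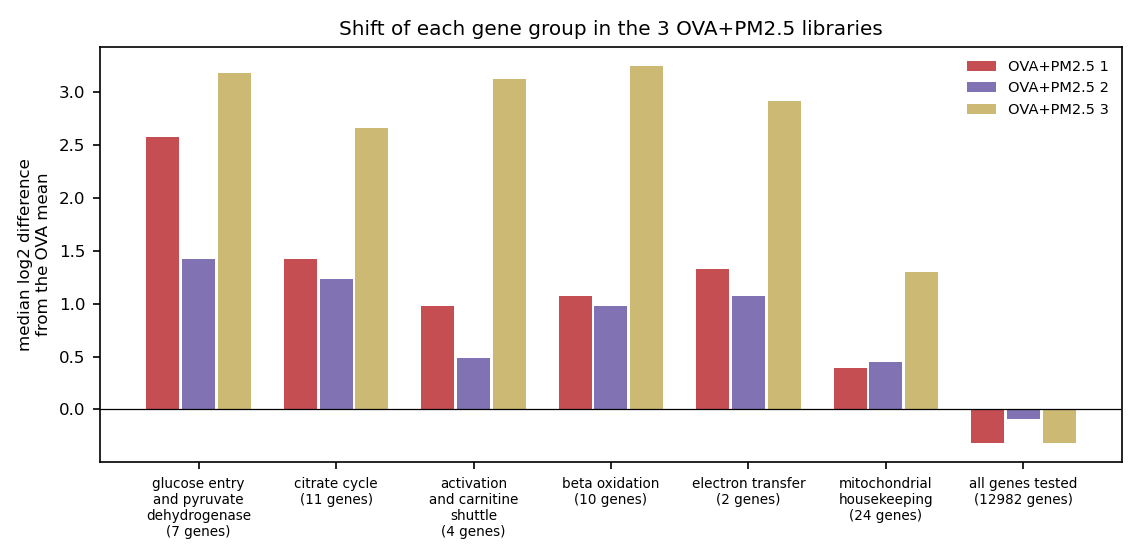
Median log2 difference from the OVA mean, on the log2(FPKM + 0.5) scale, of the tested genes of each role in OVA+PM2.5 replicates 1, 2 and 3, with 24 mitochondrial housekeeping genes and all genes tested beside them. Bars start at 0; replicate 3 is highest in each role, replicate 1 comes nearest to it for glucose entry (2.58 against 3.18) and is far from it for beta oxidation (1.07 against 3.25).

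The balance between the roles differed between the 3 OVA+PM2.5 libraries. Glucose entry and the pyruvate dehydrogenase complex had medians of 2.58, 1.42 and 3.18 log2 units over OVA in replicates 1, 2 and 3, and activation and the carnitine shuttle 0.98, 0.49 and 3.13. The summed level of beta oxidation over that of the citrate cycle was 1.17 to 1.62 in Naive and OVA libraries, 0.857 and 0.989 in replicates 1 and 2, and 1.82 in replicate 3. Replicates 1 and 2 were thus below the Naive and OVA range of this ratio and replicate 3 was above it. The fat marker sums were 703, 10.5 and 3825 FPKM in replicates 1, 2 and 3 and the skeletal muscle sums 16500, 55.9 and 293 FPKM. Replicates 1 and 3 thus had both sums above the Naive and OVA range, with the fat sum of replicate 1 mostly from Car3 (570 FPKM). Acadm over Cs gave 0.365 to 0.554 in Naive and OVA libraries and 0.252, 0.411 and 0.808 in replicates 1, 2 and 3. The part of the muscle and fat transcripts in these ratios was not tested.

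Other genes of the same pathways were compared from lists beside the 36. For OVA against Naive 0 genes of these lists passed in limma or in the voom fit, and unadjusted p-values under 0.05 were found for 1 of 12 uptake, 3 of 19 glycolysis and 2 of 12 ketone and branched-chain genes, beside 11.4% of all genes. Against OVA, 0 of 12 tested genes of fatty acid uptake and activation, 0 of 14 other beta oxidation genes, 0 of 20 other pyruvate and citrate cycle genes, 0 of 19 glycolysis genes and 0 of 12 ketone and branched-chain genes passed in OVA+PM2.5 lungs, with median log2 differences of 1.52, 0.64, 1.26, 1.16 and 0.77. In the same order 8, 7, 13, 11 and 7 had an unadjusted p under 0.05, beside 27.0% of all genes, and the voom fit called 0 in each. Among those near to passing was the muscle phosphoglycerate mutase Pgam2 at 4.23 (limma adjusted p = 0.0518). Me3, a mitochondrial malic enzyme, had a log2 difference of 1.53. It was at 0.0911 to 0.394 FPKM in Naive and OVA libraries and met the filter only through the OVA+PM2.5 libraries.

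Against Naive, 6 of 12 uptake and activation genes rose, namely Slc27a1, Crat, Lpl, Acacb, Fabp3 and Mlycd. So did 6 of 20 pyruvate and citrate cycle genes, among them Pdk1, Me3, Sdhb, Sdha and Pdpr. Me3 met the filter only through the OVA+PM2.5 libraries, so its call lends no weight. Lipoprotein lipase (Lpl), which frees fatty acids from circulating fat, rose by 3.85 ± 0.73 on the log2 scale (limma adjusted p = 0.034) and the heart-type fatty acid binding protein Fabp3 by 3.40 ± 0.78 (0.0436). Of 19 glycolysis genes 7 rose (Hk2, Pgam2, Tpi1, Pfkm, Aldoa, Pgk1 and Gpi1), of 14 other beta oxidation genes 1 (Acad11), and of 12 ketone and branched-chain genes 1, Oxct1, which lets tissues burn ketone bodies (1.54, adjusted p = 0.0266). Of the 24 housekeeping genes 3 rose, Mfn2, Immt and Opa1. The voom fit called 5 uptake, 5 pyruvate and citrate cycle and 5 glycolysis genes, and 1, 1 and 3 of the other lists as above. No gene of these lists was called lower by limma in either OVA+PM2.5 comparison.

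Muscle and fat marker lists were each highest in a different OVA+PM2.5 library. The skeletal muscle sum was highest in replicate 1, the cardiac sum in replicate 2 and the fat sum in replicate 3. In replicate 2 the fat sum, 10.5 FPKM, was inside the Naive and OVA range. The summed level of the oxidation genes was highest in replicate 3. The part of muscle and fat transcripts in the levels of the oxidation genes was not tested. The creatine kinase Ckm, of skeletal and heart muscle, was at 992, 53.3 and 25.6 FPKM in OVA+PM2.5 replicates 1, 2 and 3. Its Naive and OVA range was 0.10 to 3.92 FPKM. Myl3, a ventricular and slow-muscle light chain, was at 167, 4.06 and 12.7 FPKM in those replicates, against 0 to 1.27 FPKM. Both met the filter only with OVA+PM2.5 libraries counted, so their limma calls against Naive lend no weight. The voom fit called 0 skeletal and 0 cardiac muscle markers against Naive, so both calls were lost there. Of the 8 fat markers tested 0 passed in limma. The estrogen-related receptor gamma gene Esrrg, named in the series title, was at 0.126 to 0.468 FPKM in Naive and OVA libraries. It met the filter only through the OVA+PM2.5 libraries, so its p-values are left out. Its log2 difference was 0.96 against OVA and 1.35 against Naive. For Pde3b, a phosphodiesterase also named in the title, these were 0.81 (limma adjusted p = 0.478) and 1.09 (0.289). Pde3b was at 5.07, 1.87 and 24.6 FPKM in OVA+PM2.5 replicates 1, 2 and 3. Its Naive and OVA range was 2.52 to 4.49 FPKM, so replicate 2 was below it.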

How the data were processed

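Poly(A) RNA from lungs of 9 mice was extracted with Trizol and prepared with a NEBNext Ultra kit, per the labels' protocols. The authors deposited 1 table of FPKM per gene for the 9 libraries, mapped to GRCm39 per the submitters' processing notes. Neither the aligner nor the counter, its strand setting or its treatment of shared reads is given in the labels and notes used. FPKM is scaled to each library's total, so a level is relative to the other transcripts of its library. Symbols came from the table for 13084 genes and from a reference by Ensembl identifier for 8725, and 75 had none. Reference annotation and promoters were of GRCm38, used for names, gene overlap and promoter letters.

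Genes with at least 0.5 FPKM in at least 3 of 9 libraries (12982, of them 34 of the 36) were tested on log2(FPKM + 0.5), which understates changes of low genes. A single limma model (version 3.58.1, R 4.3.3; lmFit, contrasts.fit, eBayes with trend) covered the 9 libraries, with 6 residual degrees of freedom and 2.79 prior ones (median), two-sided tests, Benjamini-Hochberg adjustment and a threshold of 0.05. The script was tested on simulated data. Whole fragments were sought in the FPKM steps and found for each of the 17298 genes detected in 2 or more libraries (100%, within 0.001). For genes detected in only a few libraries the search could hardly fail, so the 100% is no check of those genes. The fragments were used for depth and for a voom fit. A gene whose fragments share a common factor would be understated. The closest replicates, Naive 2 and 3, had a mean chi-square per gene of 39.2, and each library counts as 1 sample. Tables and figures were made in Python 3.11.15 (matplotlib 3.10.9, scipy 1.17.1, pandas 2.3.3, numpy 2.4.6).

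Of genes outside the 36, those past the threshold or the 2 smallest p of each list could be named, with markers that stand beside a result. 1 gene that this rule selected is not reported here. The genes, lists and tests were chosen with earlier results of these data known. Alternatives were other pseudocounts, filters, scalings, weights, 2-group fits, a replicate block, voom and leaving out libraries. Without OVA+PM2.5 replicates 1 and 3 was added after the data had been seen.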

Additional observations from a re-analysis of the deposited data

How the results depend on the processing

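No gene's difference changed sign, of the 34 in both OVA+PM2.5 comparisons or of the 5 extreme genes followed in OVA against Naive, under any of the 21 alternatives. For genes called in OVA against Naive (2), pseudocounts of 0.1 and 1 gave 1 and 20, no filter 0, the 2-group fit 895, 1 weight per group 817, common-sum and quantile scaling 40 and 18, leaving out 1 library 0 to 54, and leaving out OVA+PM2.5 replicates 1 and 3 887. The 36 genes had 0 calls there under each of these, and their median moved from −0.05 to −0.42 under common-sum scaling, where all genes moved to −0.44. It was 0.06 under median-ratio and 0.10 under quantile scaling, with 20 and 26 of the 34 genes above 0 in place of 13, so signs of single genes in this comparison depend on the scaling. For genes called in OVA+PM2.5 against OVA (28), no filter gave 12, a filter at 1 FPKM 50, the 2-group fit 0, weights 7, common-sum, median-ratio and quantile scaling 98, 97 and 138, leaving out 1 library 0 to 3295, and leaving out OVA+PM2.5 replicates 1 and 3 253. Of the 34, the 4 called became 1 with no filter, 0 in the 2-group fit (30 at an unadjusted p under 0.05), 9, 7 and 8 under the 3 scalings, 0 to 30 with 1 library left out, and 11 without both. For genes called in OVA+PM2.5 against Naive (924, 198 of them higher), a pseudocount of 0.1 gave 488, no filter 157, the 2-group fit 0, weights 473, voom 469, leaving out 1 library 0 to 4248 and leaving out both 333; the 3 scalings gave 1645, 267 and 391, of which 204, 165 and 209 were higher. The 15 called became 6 with no filter, 0 in the 2-group fit (29 at an unadjusted p under 0.05) and 0 to 30 with 1 library left out, where 0 to 1 were called lower (Cpt1a, without OVA+PM2.5 replicate 2). The cause of these changes was not tested.

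Whether equal replicate numbers pair the mice is not stated in the labels. Libraries sharing a number had deviations from their group means with correlations between −0.171 and 0.278, over 0.1 in 3 of 9 pairs. In addition, 1 library correlated best with its own number in both other groups. With 3 libraries a group, these values cannot decide whether a pairing existed. With a replicate block the genes called were 0, 0 and 50 in the 3 comparisons, and 0 and 2 of the 34 in the OVA+PM2.5 ones.

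The OVA+PM2.5 libraries varied most: their fitted weight was 0.347, beside 2.15 for Naive and 1.34 for OVA, and the shared fit uses 1 spread for the 3 groups. Libraries held 12142843 to 15748097 fragments, and the levels of Cpt1b and Etfb rest on few of them.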
